A study of Mus musculus with 13 samples.

Results

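Interferon-stimulated genes are the transcripts that cells switch on when they sense interferon, and 41 of them were followed in the mouse brain after a transient stroke, in mice with intact microglia and in mice whose microglia had been depleted. They were chosen by name, as the rows of the deposited tables whose gene name was on a list of interferon receptors, signalling factors and induced genes. All 41 were found among the 21056 genes common to the tables, and all 41 passed the filter on low counts that left 16940 genes to test. By role they were 4 interferon receptors, 4 transcription factors, 3 sensors of viral RNA, 14 antiviral effectors including the ISG15 system, 8 other induced genes and 8 guanylate-binding proteins and immunity-related GTPases. For a second division, 27 members are called type I-like genes here, a grouping by gene name, and are described beside the 8 GTPases. Which interferon induces the members of either class was not tested. The receptors, Irf1 and Parp3 were put in neither class.

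Type I interferons bind the receptor pair IFNAR1 and IFNAR2, and the kinases JAK1 and TYK2 then activate STAT transcription factors, which join IRF9 and bind the interferon-stimulated response element (ISRE). Interferon-gamma binds IFNGR1 and IFNGR2 and leads to binding at the gamma-activated site (GAS), and the GTPases are among its best known targets, although type I interferon induces them too. In the brain, microglia, astrocytes, endothelial cells and neurons can all respond to interferon.

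RNA from brain tissue of 13 male mice was sequenced, each library from an animal with its own identifier. Per the labels, every mouse, in all groups, carried 1 CX3CR1creER allele and 1 Cre-dependent diphtheria toxin receptor allele (iDTR) at the Rosa locus. CX3CR1creER is a tamoxifen-inducible Cre at a gene of microglia and other mononuclear phagocytes, and every mouse received tamoxifen. The depleted mice (DE) received diphtheria toxin at 50 ng per g body weight on 3 days, 30 days after tamoxifen, and the control mice (CON) received normal saline. The occluded mice (tMCAO) had a filament in the right middle cerebral artery for 60 min followed by reperfusion, and the others had sham surgery. The groups were tMCAO_DE (n = 2), tMCAO_CON (n = 4), sham_DE (n = 4) and sham_CON (n = 3). Tamoxifen is recorded at 7 to 8 weeks of age and surgery at 6 to 8 weeks, which cannot both hold with 30 days between them. The sources used here give neither the time from reperfusion to sampling nor the brain region. The library labelled tMCAO_CON 4 is entered under treatment as sham operated, which its title contradicts, and was kept by its title.

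Libraries held 16239763 to 22080367 counts. Csf1r, the growth factor receptor on which microglia depend, lay at 6.08 to 8.51 CPM (counts scaled to the library total) in tMCAO_DE, against 76.4 to 97.4 CPM in tMCAO_CON, and at 6.1 to 16 CPM in sham_DE, against 92 to 93.4 CPM in sham_CON. Gfap, the filament of reactive astrocytes, lay at 646 to 1010 CPM in the occluded libraries. In the sham libraries it lay at 137 to 180 CPM in sham_DE and at 51 to 91.4 CPM in sham_CON. In whole tissue, fewer cells of a type and less RNA per cell cannot be told apart. The deposited tables hold 22160 entries for the tMCAO groups and 22110 for the sham groups, so a difference in processing between them cannot be told apart from the surgery.

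Occlusion with microglia present, tMCAO_CON against sham_CON, raised a large share of the list. In tMCAO_CON 22 of 41 members rose and none fell in edgeR's quasi-likelihood test, with Benjamini-Hochberg adjustment over all genes tested and a threshold of 0.05. Of all genes tested, 5.14% rose and 3.31% fell. The rises included 12 of 14 antiviral effectors, 4 of 8 other induced genes, 2 of 4 transcription factors, 2 of 3 RNA sensors and 2 of 8 GTPases, and no receptor passed. The median log2 fold change was 1.24 over the members and 0.02 over all genes. In 27 of 41 members every tMCAO_CON library lay above every sham_CON library, which held for 13.1% of all genes. No member fell at an unadjusted p under 0.05 either, and 34 rose at that level. The number of rises rested on single libraries, being 8 without sham_CON 1, 7 without sham_CON 3 and 16 without tMCAO_CON 3. Ifit2, Irf9, Mx1, Mx2, Rsad2, Parp3 and Irgm1 (7 of the 22) passed under all 23 alternative settings. Of these, Mx2 is annotated in GENCODE as a polymorphic pseudogene.

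Occlusion after depletion, tMCAO_DE against sham_DE, gave 19 of 41 members higher and none lower (edgeR), against 6.59% higher and 5.84% lower among all genes. GTPases made up 6 of the 19 and antiviral effectors 5, and the median log2 fold change was 1.18 over the members and -0.00 over all genes. In 33 of 41 members both tMCAO_DE libraries lay above every sham_DE library, which held for 19.5% of all genes. None fell and 29 rose at an unadjusted p under 0.05. With tMCAO_DE at 2 libraries, the number of rises was 11 without tMCAO_DE 1 and 3 without tMCAO_DE 2. Parp3 and Irgm1 were the 2 members that passed under all 23 alternative settings.

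**Figure D1:**
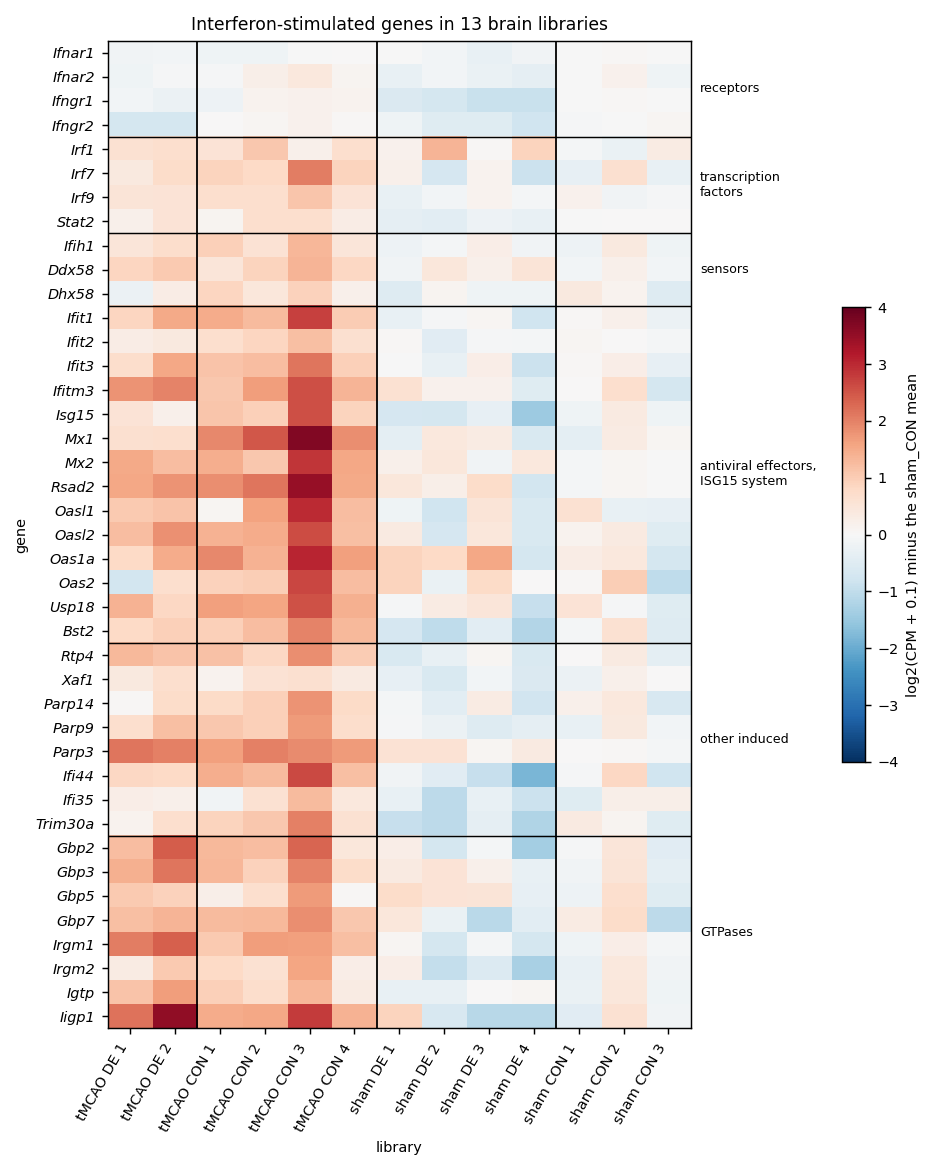
Level of each of the 41 members in each of the 13 libraries, as the difference in log2(CPM + 0.1) from the mean of the sham_CON libraries, with members in rows by role and libraries in columns by group. Red is above sham_CON and blue below it. The tMCAO_DE and tMCAO_CON columns are mostly red, replicate 3 of tMCAO_CON most of all, and the receptors at the top stay near the sham_CON level or below it.

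The promoters were searched for the core letters of the ISRE and the GAS, and 5 that hold a match are shown because their genes had the largest differences in length-scaled level between tMCAO_CON and sham_CON among members with a listed promoter, at most 3 from each class. They are RefSeq sequences on the mouse build GRCm38, 300 bases each, 250 before the start and 50 after it, written 5′ to 3′ on the gene's strand. The ISRE core searched for was GAAA, then 2 bases of any kind, then GAAA, and the GAS core was TTC, then 3 bases of any kind, then GAA, both on either strand, and capitals mark their matches. Ifitm3 (chr7:141010695-141010994, minus strand) holds 2 ISRE matches and a GAS match that overlaps the second of them. Ifit3 (chr19:34583279-34583578, plus strand) holds 2 ISRE matches, read on the other strand. Bst2 (chr8:71537423-71537722, minus strand) holds a GAS match and 2 ISRE matches that overlap each other. Irgm1 (chr11:48871371-48871670, minus strand) holds 2 overlapping ISRE matches, and Gbp2 (chr3:142620413-142620712, plus strand) holds 1, read on the other strand.
Ifitm3: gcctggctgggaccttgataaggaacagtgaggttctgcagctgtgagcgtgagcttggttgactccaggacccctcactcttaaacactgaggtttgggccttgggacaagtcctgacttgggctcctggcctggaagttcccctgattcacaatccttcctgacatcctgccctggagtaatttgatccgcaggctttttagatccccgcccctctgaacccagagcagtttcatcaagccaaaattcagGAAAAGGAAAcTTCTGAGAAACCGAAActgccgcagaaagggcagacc
Ifit3: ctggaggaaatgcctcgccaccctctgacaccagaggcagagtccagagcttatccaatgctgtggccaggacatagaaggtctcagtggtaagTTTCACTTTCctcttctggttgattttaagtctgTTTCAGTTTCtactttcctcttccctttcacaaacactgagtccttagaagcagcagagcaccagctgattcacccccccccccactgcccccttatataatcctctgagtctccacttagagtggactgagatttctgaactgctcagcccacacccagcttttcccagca
Bst2: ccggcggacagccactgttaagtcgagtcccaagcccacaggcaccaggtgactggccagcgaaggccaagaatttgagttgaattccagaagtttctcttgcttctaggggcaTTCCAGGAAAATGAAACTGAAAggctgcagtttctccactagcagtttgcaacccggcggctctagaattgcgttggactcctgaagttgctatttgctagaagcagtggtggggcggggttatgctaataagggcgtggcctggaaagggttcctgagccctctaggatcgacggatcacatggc
Irgm1: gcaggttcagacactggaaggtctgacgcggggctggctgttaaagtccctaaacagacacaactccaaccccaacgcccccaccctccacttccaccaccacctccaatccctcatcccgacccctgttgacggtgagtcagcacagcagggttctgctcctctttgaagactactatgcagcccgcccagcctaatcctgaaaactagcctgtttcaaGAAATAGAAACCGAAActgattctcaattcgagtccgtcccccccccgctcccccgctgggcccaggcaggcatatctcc
Gbp2: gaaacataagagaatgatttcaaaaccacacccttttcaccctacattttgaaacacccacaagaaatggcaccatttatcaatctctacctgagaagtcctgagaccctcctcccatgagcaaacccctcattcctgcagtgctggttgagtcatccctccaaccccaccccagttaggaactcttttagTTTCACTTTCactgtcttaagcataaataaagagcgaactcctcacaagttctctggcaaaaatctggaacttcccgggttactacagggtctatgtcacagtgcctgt

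A promoter was found for 32 of the 41 members. The ISRE core was present in 18 of the 32 (56.2%), against 1079 of 27025 promoters of all genes (3.99%). It was present in 11 of 19 type I-like genes (57.9%), in 7 of 7 GTPases and in 0 of 4 receptors. The GAS core was present in 12 of the 32 (37.5%), against 9.55% of all promoters, in 5 of 19 type I-like genes (26.3%), in 4 of 7 GTPases (57.1%) and in 2 of 4 receptors. Neither core was in the window of 9 of the 32, among them Irf9, Oasl2, Parp3 and Xaf1, which rose in at least 1 occlusion comparison. A match is a description of the letters in this window and not a measured binding site.

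The receptors were the role that occlusion moved least with microglia present, with log2 fold changes of -0.08 to 0.18 in tMCAO_CON over sham_CON. Ifnar2, the high-affinity chain for type I interferon, had 13.6 and 15 CPM in tMCAO_DE, 15, 18.1, 20.6 and 16.7 CPM in tMCAO_CON, 12.6, 14.3, 13 and 12 CPM in sham_DE, and 15.4, 17.5 and 13.8 CPM in sham_CON. Its groups overlapped in both occlusion comparisons, with log2 fold changes of 0.18 ± 0.12 (standard error, edgeR adjusted p = 0.41) with microglia and 0.14 ± 0.13 (0.54) after depletion. Ifngr1, the ligand-binding chain for interferon-gamma, had 11.8 and 10.9 CPM in tMCAO_DE, 11.1, 14.1, 14.5 and 14.2 CPM in tMCAO_CON, 8.49, 7.82, 6.89 and 6.84 CPM in sham_DE, and 12.7, 13.2 and 12.6 CPM in sham_CON. The sham_DE libraries were the lowest and lay apart from both of the groups they are compared with. Ifngr1 rose in tMCAO_DE over sham_DE by 0.60 ± 0.13 (edgeR adjusted p = 0.012), a call that ended without either tMCAO_DE library (adjusted p up to 0.11), and differed by 0.07 ± 0.11 (0.76) in tMCAO_CON over sham_CON. Ifngr2, the second chain of that receptor, had 26.9 and 26.8 CPM in tMCAO_DE, 44.3, 46.1, 48.8 and 44.7 CPM in tMCAO_CON, 38.7, 31.1, 31.2 and 24.9 CPM in sham_DE, and 42.6, 42.9 and 45.7 CPM in sham_CON. Its depleted libraries all lay below its control libraries, and the occluded and sham libraries overlapped. Ifnar1, the second chain for type I interferon, stayed within 38.5 to 48.9 CPM over the 13 libraries.

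Of the transcription factors, Irf9, the DNA-binding partner of STAT2, and Stat2 passed in both occlusion comparisons. Irf9 had 20.4 and 21 CPM in tMCAO_DE, 23.1, 23, 31.2 and 21.2 CPM in tMCAO_CON, 11.7, 13.2, 15.7 and 13.5 CPM in sham_DE, and 16.3, 12.9 and 14 CPM in sham_CON. Every occluded library lay above every sham library. It rose by 0.77 ± 0.14 in tMCAO_CON over sham_CON (edgeR adjusted p = 0.0058) and by 0.61 ± 0.16 in tMCAO_DE over sham_DE (0.023), the second lost without either tMCAO_DE library (adjusted p up to 0.14). Stat2 had 46 and 57.7 CPM in tMCAO_DE, 43, 63.6, 63.9 and 49.1 CPM in tMCAO_CON, 31.1, 29.8, 34.8 and 32.3 CPM in sham_DE, and 39, 40.4 and 39.7 CPM in sham_CON. Its occluded libraries were again all higher, by 0.47 ± 0.13 in tMCAO_CON over sham_CON (edgeR adjusted p = 0.046) and by 0.70 ± 0.15 in tMCAO_DE over sham_DE (0.0098). The tMCAO_CON call of Stat2 ended under 11 settings, among them without any of the sham_CON libraries, sham_DE 2, 3 or 4 or tMCAO_CON 2 or 3 (adjusted p up to 0.13), and the tMCAO_DE call without tMCAO_DE 2 (0.14).

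Irf7, which amplifies type I interferon production and is itself induced, had 3.52 and 4.51 CPM in tMCAO_DE, 5.02, 4.75, 11.3 and 5 CPM in tMCAO_CON, 3.08, 1.64, 2.99 and 1.43 CPM in sham_DE, and 2.09, 4.25 and 2.15 CPM in sham_CON. The groups did not overlap in either occlusion comparison, yet neither difference passed, at 1.2 ± 0.38 with microglia (edgeR adjusted p = 0.073) and 0.82 ± 0.43 after depletion (0.23). Irf1, a factor induced early by interferon, had 8.29 and 8.81 CPM in tMCAO_DE, 8.06, 11.5, 6.23 and 8.73 CPM in tMCAO_CON, 6.11, 14, 5.67 and 10.2 CPM in sham_DE, and 5.2, 4.49 and 6.89 CPM in sham_CON. Its sham_DE libraries spanned the occluded ones, and it passed in no comparison, with log2 fold changes of 0.65 ± 0.30 (0.21) in tMCAO_CON over sham_CON and -0.08 ± 0.33 (0.9) in tMCAO_DE over sham_DE.

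The RNA sensors rose in 2 of 3 members with microglia present, and the log2 fold changes of all 3 were above 0 after depletion without passing. Ddx58, which encodes RIG-I, had 12.4 and 14.3 CPM in tMCAO_DE, 9.49, 12.8, 17.8 and 12.3 CPM in tMCAO_CON, 6.22, 9.36, 7.86 and 9.86 CPM in sham_DE, and 6.38, 7.96 and 6.27 CPM in sham_CON. Occluded libraries lay above their own sham groups in both comparisons, by 0.93 ± 0.21 in tMCAO_CON (edgeR adjusted p = 0.016) and 0.68 ± 0.22 in tMCAO_DE (0.063). The first call ended without sham_CON 1 or 3 (adjusted p up to 0.077). Ifih1, which encodes the sensor MDA5, rose in tMCAO_CON by 0.86 ± 0.22 (edgeR adjusted p = 0.028), a call lost without sham_CON 1 or 3 or tMCAO_CON 1 or 3 (adjusted p up to 0.12), and stood at 0.63 ± 0.24 (0.1) in tMCAO_DE. Dhx58, which encodes the regulator LGP2, had 1.41 and 2.08 CPM in tMCAO_DE, 3.09, 2.3, 3.24 and 1.94 CPM in tMCAO_CON, 1.14, 1.82, 1.46 and 1.48 CPM in sham_DE, and 2.2, 1.85 and 1.13 CPM in sham_CON. Its groups overlapped throughout.

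The antiviral effectors held the largest rises with microglia present. Mx1, a dynamin-like GTPase that traps viral nucleocapsids, had 0.552 and 0.557 CPM in tMCAO_DE, 1.49, 2.25, 5.29 and 1.41 CPM in tMCAO_CON, 0.216, 0.455, 0.427 and 0.171 CPM in sham_DE, and 0.215, 0.419 and 0.339 CPM in sham_CON. The tMCAO_CON libraries stood above every library of the other groups, and the tMCAO_DE libraries only just above sham_DE. Mx1 rose by 2.99 ± 0.55 in tMCAO_CON over sham_CON (edgeR adjusted p = 0.0057) and stood at 0.78 ± 0.65 in tMCAO_DE over sham_DE (0.47). These values rest on few reads, 11 counts in each tMCAO_DE library and 3 to 10 in the sham libraries. Ifit2, which binds foreign RNA and blocks its translation, had 16.5 and 17.9 CPM in tMCAO_DE, 21.6, 24.6, 31.2 and 21.1 CPM in tMCAO_CON, 14.1, 9.91, 13 and 12.8 CPM in sham_DE, and 14.3, 13.6 and 12.8 CPM in sham_CON. All groups but the sham pair were separate, and Ifit2 rose by 0.86 ± 0.15 in tMCAO_CON (edgeR adjusted p = 0.0039) and stood at 0.46 ± 0.16 in tMCAO_DE (0.08).

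Bst2, or tetherin, which holds budding virus at the cell surface and whose promoter is shown above, had 3.62 and 4.05 CPM in tMCAO_DE, 4.08, 4.94, 8.47 and 5.24 CPM in tMCAO_CON, 1.24, 0.955, 1.52 and 0.855 CPM in sham_DE, and 1.93, 3.17 and 1.41 CPM in sham_CON. Occluded libraries were higher in both comparisons with no overlap. It rose by 1.39 ± 0.31 in tMCAO_CON over sham_CON (edgeR adjusted p = 0.015) and by 1.75 ± 0.34 in tMCAO_DE over sham_DE (0.0072), calls that ended without sham_CON 1 or 3 (adjusted p up to 0.077) and without tMCAO_DE 2 (0.068). Ifitm3, a membrane protein that hinders viral entry, had the highest level per length of all members in both occluded groups, at 31.2 FPKM (fragments scaled to transcript length and library) in tMCAO_DE and 29.5 FPKM in tMCAO_CON, beside 9.02 FPKM in sham_DE and 8.53 FPKM in sham_CON. It rose by 1.70 ± 0.38 with microglia (edgeR adjusted p = 0.016) and by 1.74 ± 0.39 after depletion (0.014), the first lost without sham_CON 1 or 3 (up to 0.079) and the second without either tMCAO_DE library (up to 0.11).

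Ifit1 and Ifit3, relatives of Ifit2, and Oasl2, of the oligoadenylate synthetase family, also passed in both comparisons. Their log2 fold changes were 1.81 ± 0.40, 1.43 ± 0.33 and 1.77 ± 0.40 in tMCAO_CON, against 1.49 ± 0.42, 1.36 ± 0.35 and 1.62 ± 0.42 in tMCAO_DE. Each of these calls ended without a single library, with adjusted p up to 0.087 in tMCAO_CON (sham_CON 1 or 3) and up to 0.29 in tMCAO_DE (tMCAO_DE 2 or sham_DE 2, and for Ifit1 and Oasl2 also tMCAO_DE 1, with Ifit1 further lost without sham_DE 1 or 4). Besides Mx1 and Ifit2, another 5 effectors passed with microglia and not after depletion, namely Mx2 at 1.99 ± 0.40 (edgeR adjusted p = 0.0099), the antiviral radical enzyme Rsad2 (viperin) at 2.55 ± 0.48 (0.0066), the 2-5A synthetase Oas1a at 2.4 ± 0.64 (0.035), the ubiquitin-like modifier Isg15 at 1.62 ± 0.44 (0.04) and its protease Usp18 at 1.88 ± 0.40 (0.012). After depletion these stood at 1.18 ± 0.42 (Mx2, 0.084), 1.47 ± 0.49 (Rsad2, 0.069), 0.40 ± 0.66 (Oas1a, 0.74), 1.23 ± 0.53 (Isg15, 0.15) and 1.15 ± 0.43 (Usp18, 0.097). The calls of Oas1a and Isg15 ended without any of the sham_CON libraries or tMCAO_CON 3 (adjusted p up to 0.14), that of Isg15 also without sham_DE 2 or either tMCAO_DE library, and that of Usp18 without sham_CON 3 (0.067). Oasl1 at 2.0 ± 0.68 (0.089) and Oas2 at 1.55 ± 0.61 (0.14) did not pass with microglia, nor at 1.57 ± 0.77 (0.2) and -0.32 ± 0.73 (0.82) after depletion.

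**Figure D2:**
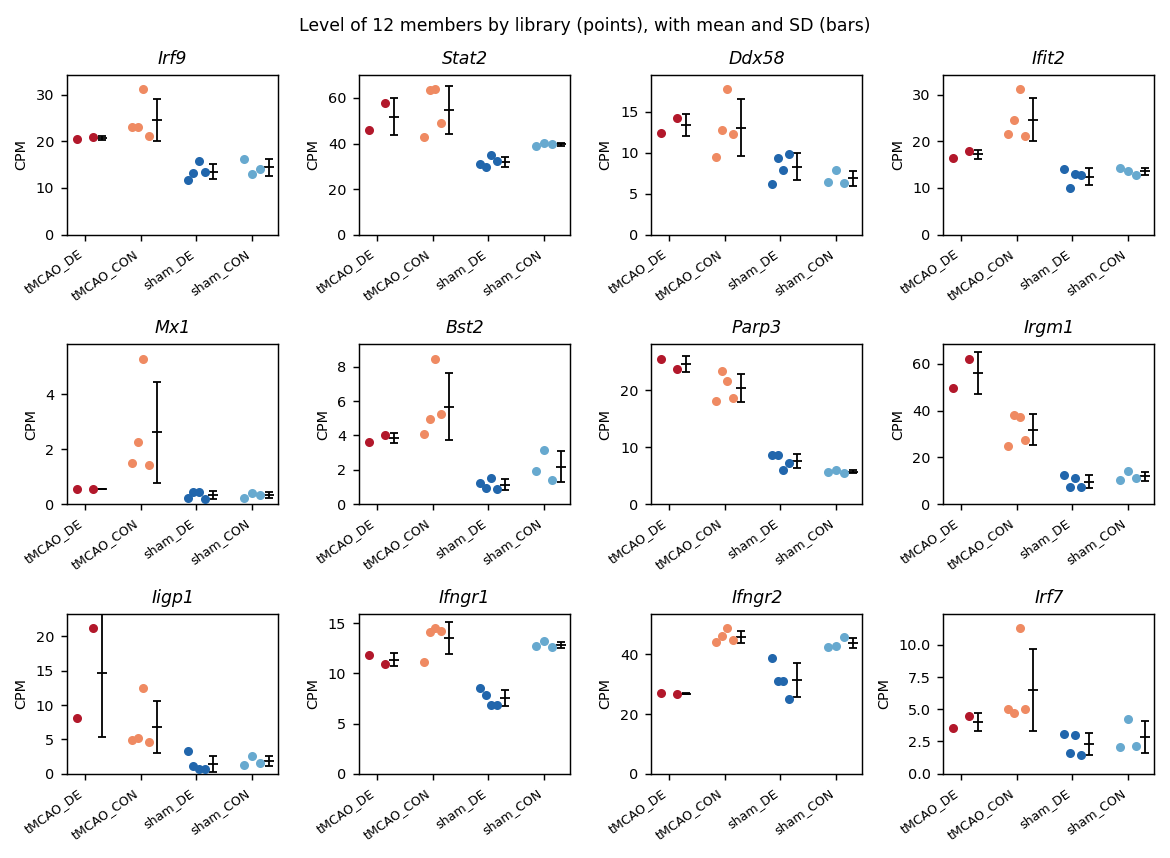
Level in CPM of the members described in every library, 1 panel per gene, with each point a library and the bars the group mean and SD. Mx1 lies at 1.41 to 5.29 CPM in tMCAO_CON and at 0.552 and 0.557 CPM in tMCAO_DE, whereas Irgm1 lies at 49.5 and 62.2 CPM in tMCAO_DE and at 24.8 to 38 CPM in tMCAO_CON.

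Among the other induced genes, Parp3, an ADP-ribosyltransferase of DNA break repair, gave the lowest p of all members with microglia present. It had 25.6 and 23.7 CPM in tMCAO_DE, 18.2, 23.4, 21.6 and 18.7 CPM in tMCAO_CON, 8.65, 8.59, 6.09 and 7.3 CPM in sham_DE, and 5.74, 5.98 and 5.48 CPM in sham_CON. No group overlapped another, and the order of the groups was tMCAO_DE, tMCAO_CON, sham_DE and sham_CON, from the highest. Parp3 rose by 1.83 ± 0.14 in tMCAO_CON (edgeR adjusted p = 1.1e-05) and by 1.68 ± 0.14 in tMCAO_DE (3.6e-05). Xaf1, a pro-apoptotic zinc finger protein, had 10.2 and 12.6 CPM in tMCAO_DE, 8.55, 11.6, 12.1 and 9.94 CPM in tMCAO_CON, 6.22, 5.09, 7.19 and 5.19 CPM in sham_DE, and 6.65, 8.97 and 7.96 CPM in sham_CON. Its tMCAO_DE libraries lay above all sham libraries, and its tMCAO_CON libraries overlapped sham_CON, with 0.95 ± 0.18 in tMCAO_DE (edgeR adjusted p = 0.0064, and 0.093 without tMCAO_DE 2) and 0.42 ± 0.16 in tMCAO_CON (0.14). Trim30a, a tripartite motif protein, had 3.36 and 4.91 CPM in tMCAO_DE, 5.74, 6.52, 12.6 and 4.66 CPM in tMCAO_CON, 1.57, 1.41, 2.32 and 1.25 CPM in sham_DE, and 3.92, 3.29 and 2.15 CPM in sham_CON.

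Occluded Trim30a libraries were above their sham groups in both comparisons, by 1.24 ± 0.34 in tMCAO_CON (edgeR adjusted p = 0.042) and 1.34 ± 0.39 in tMCAO_DE (0.04). Both calls ended without single libraries, the first without any of the sham_CON libraries, sham_DE 2, tMCAO_CON 2 or 3 or either tMCAO_DE library (adjusted p up to 0.16) and the second without sham_CON 2, sham_DE 1, 2 or 4 or either tMCAO_DE library (up to 0.29). Rtp4, a receptor-transporting protein, and Parp9, a partner of the ubiquitin ligase Dtx3l, passed in both comparisons, at 1.28 ± 0.28 and 1.14 ± 0.25 in tMCAO_CON (edgeR adjusted p = 0.015 each, up to 0.08 without sham_CON 1 or 3) and at 1.61 ± 0.31 (0.0063) and 1.26 ± 0.27 (0.012) in tMCAO_DE. The tMCAO_DE calls ended for Rtp4 without tMCAO_DE 1 (0.057) and for Parp9 without tMCAO_DE 2 (0.15). Parp14 at 1.09 ± 0.34 (0.063), Ifi44 at 1.74 ± 0.51 (0.051) and Ifi35 at 0.60 ± 0.32 (0.28) did not pass with microglia, nor after depletion at 0.62 ± 0.38 (0.31), 1.71 ± 0.60 (0.08) and 0.88 ± 0.37 (0.14).

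The GTPases defend against pathogens held in vacuoles, the Gbp proteins by coating them and the Irgm proteins, Igtp and Iigp1 by acting on the vacuole membrane. Irgm1 had 49.5 and 62.2 CPM in tMCAO_DE, 24.8, 38, 37.1 and 27.4 CPM in tMCAO_CON, 12.6, 7.27, 11.3 and 7.18 CPM in sham_DE, and 10.5, 14.1 and 11.2 CPM in sham_CON. Its occluded libraries were all above its sham libraries, and the tMCAO_DE libraries were above all the rest. It rose by 1.41 ± 0.22 in tMCAO_CON over sham_CON (edgeR adjusted p = 0.0023) and by 2.55 ± 0.23 in tMCAO_DE over sham_DE (7.1e-05). Iigp1 had 8.04 and 21.2 CPM in tMCAO_DE, 4.97, 5.18, 12.5 and 4.61 CPM in tMCAO_CON, 3.24, 1.05, 0.731 and 0.741 CPM in sham_DE, and 1.23, 2.63 and 1.53 CPM in sham_CON. It rose by 3.33 ± 0.57 in tMCAO_DE (edgeR adjusted p = 0.0036, and 0.069 without tMCAO_DE 2), where both libraries lay above sham_DE but differed from each other, and stood at 1.92 ± 0.56 in tMCAO_CON (0.052).

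Gbp2, Gbp3, Gbp7 and Igtp also rose after depletion, by 2.33 ± 0.50 (edgeR adjusted p = 0.011), 1.59 ± 0.34 (0.011), 1.52 ± 0.40 (0.027) and 1.55 ± 0.26 (0.0032). Each of these calls ended without tMCAO_DE 2 (adjusted p 0.06 to 0.17), and that of Gbp7 also without tMCAO_DE 1 or sham_DE 2, 3 or 4. With microglia, Gbp3 rose by 1.28 ± 0.33 (0.03), a call lost without sham_CON 1 or 3 or tMCAO_CON 1 or 3 (up to 0.13), and Gbp2 stood at 1.46 ± 0.47 (0.077), Gbp7 at 1.24 ± 0.38 (0.059) and Igtp at 0.84 ± 0.25 (0.051). Gbp5 at 0.56 ± 0.43 (0.43) and Irgm2 at 1.26 ± 0.41 (0.063) did not pass after depletion, nor at 0.74 ± 0.40 (0.29) and 0.87 ± 0.38 (0.18) with microglia. Exons of Igtp and Irgm2 overlap on the same strand, so the split of reads between them is uncertain, as is the split among the near copies of the Gbp family.

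**Figure D3:**
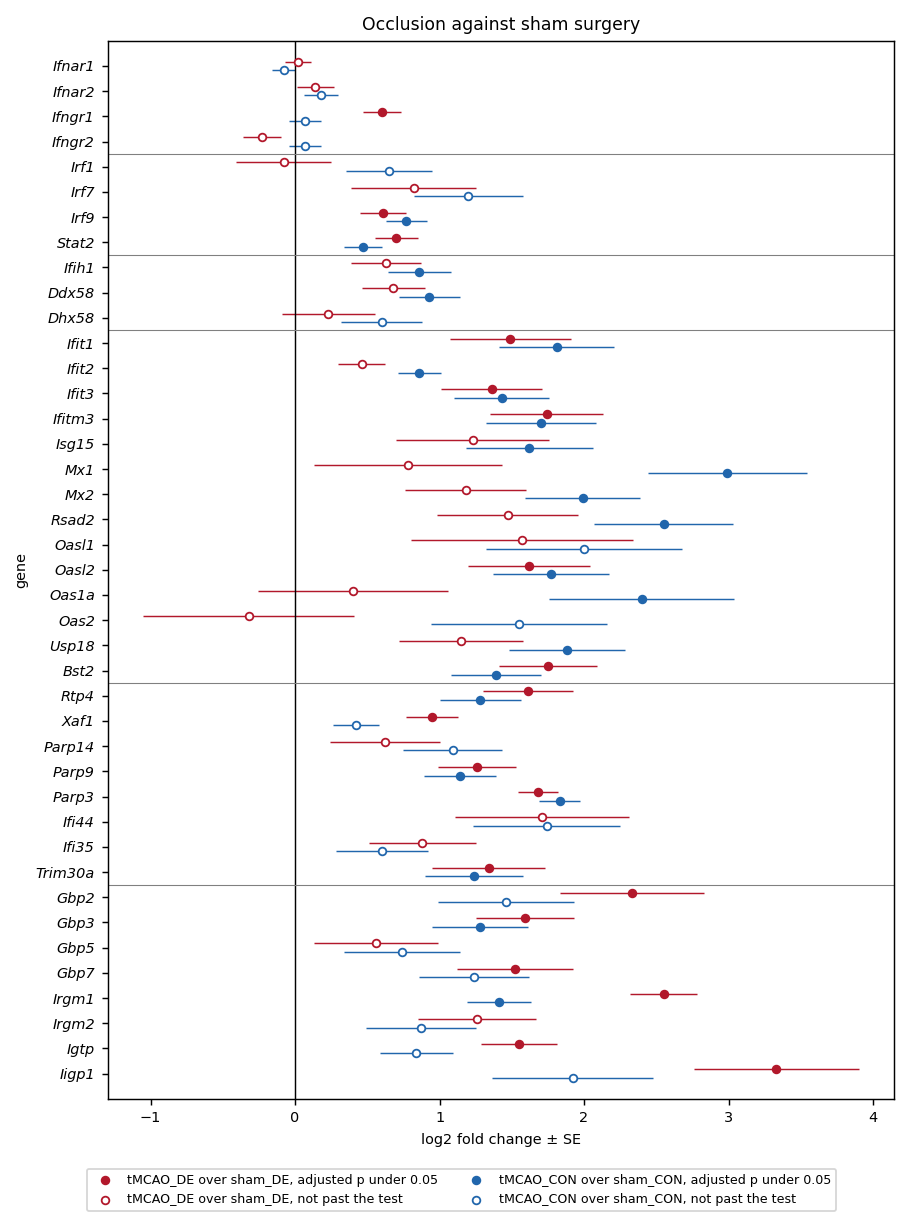
Log2 fold change of each member with its standard error in both occlusion comparisons, tMCAO_DE over sham_DE and tMCAO_CON over sham_CON, with filled points for an edgeR adjusted p under 0.05. Filled points number 19 and 22, the antiviral effectors mostly reach further right with microglia present and the GTPases mostly further right after depletion.

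Set side by side by class, type I-like genes rose in 11 of 27 after depletion (tMCAO_DE over sham_DE), median log2 fold change 1.15, and in 19 of 27 with microglia (tMCAO_CON over sham_CON), median 1.39. GTPases rose in 6 of 8 after depletion, median 1.57, and in 2 of 8 with microglia, median 1.26. Of all genes, 6.59% rose after depletion and 5.14% with microglia. At an unadjusted p under 0.05 in edgeR, 7 of 8 GTPases rose in each of the 2 comparisons. At that level 20 of 27 type I-like genes rose after depletion and 26 with microglia. The class mean per library, as the log2 difference from sham_CON, was 0.68 and 0.95 in tMCAO_DE and 1.0, 1.12, 2.09 and 0.97 in tMCAO_CON for type I-like genes. For GTPases it was 1.32 and 1.94 in tMCAO_DE and 1.05, 1.08, 1.90 and 0.69 in tMCAO_CON. Type I-like means in tMCAO_DE were thus below those in tMCAO_CON, and GTPase means overlapped. The sham_DE and sham_CON means lay between -0.58 and 0.29 for type I-like genes and between -0.68 and 0.52 for GTPases. The class counts moved with single libraries, with 5 type I-like rises in tMCAO_CON without sham_CON 3 and 6 without sham_CON 1, and in tMCAO_DE 1 without tMCAO_DE 2, 5 without tMCAO_DE 1, 7 without sham_DE 2 and 17 without tMCAO_CON 3. For GTPases the count in tMCAO_DE was 1 without tMCAO_DE 2, and in tMCAO_CON it was 6 with DESeq2, 4 without sham_CON 2, sham_DE 1 or tMCAO_CON 4 and 1 without sham_CON 1 or 3 or tMCAO_CON 1 or 3.

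Whether occlusion acted differently after depletion was tested as the interaction, the tMCAO_DE over sham_DE change minus the tMCAO_CON over sham_CON change. No member passed in edgeR, where 3 of 41 had an unadjusted p under 0.05, nor in DESeq2 (5 at that level) or limma on log2 FPKM (3), and 0.0472% of all genes passed in edgeR. The difference between the 2 occlusion responses is therefore not shown for any member. Its sign was positive for 8 of 27 type I-like genes, median -0.25, and for 7 of 8 GTPases, median 0.55, beside 7910 of 16940 genes and a median of -0.02. Over all 41 members the sign was positive for 17, median -0.15. When tMCAO_CON 3 was left out it was positive for 26, median 0.26, so the direction over all members rested on that library. The members with the lowest p by role were Irgm1 at 1.13 ± 0.32 (edgeR adjusted p = 0.29), Ifngr1 at 0.53 ± 0.17 (0.36), Mx1 at -2.21 ± 0.87 (0.45), Xaf1 at 0.53 ± 0.25 (0.52), Irf1 at -0.72 ± 0.45 (0.62) and Dhx58 at -0.37 ± 0.43 (0.82). Iigp1 at 1.41 ± 0.81 (0.59), Igtp at 0.71 ± 0.36 (0.55) and Oas1a at -2.0 ± 0.93 (0.52) were of similar or larger size with wider errors. The lowest adjusted p of any member was 0.07 to 0.62 over the alternative settings.

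**Figure D4:**
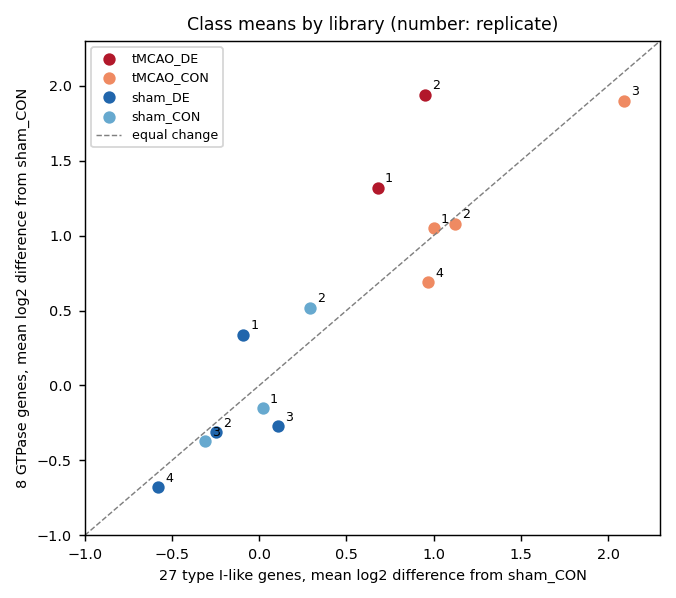
Mean log2 difference from sham_CON over the 27 type I-like genes (horizontal) and the 8 GTPases (vertical) in each of the 13 libraries, numbered by replicate. The tMCAO_DE libraries, at 0.68 and 0.95 across and 1.32 and 1.94 up, lie above the diagonal of equal change, tMCAO_CON libraries lie near it and sham libraries cluster near 0.

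Within the occluded brain, tMCAO_DE against tMCAO_CON, few members differed. Irgm1 was the 1 member that rose, and Ifngr2, Mx1 and Ifit2 (3 of 41) fell in edgeR, against 9.36% higher and 9.26% lower among all genes, so the share of falls was near the background. The median log2 fold change was -0.27 over members and -0.01 over all genes, with -0.56 over type I-like genes and 0.49 over GTPases. Without tMCAO_CON 3 the median over members was -0.03. In 11 of 41 members both tMCAO_DE libraries lay below every tMCAO_CON library, which held for 22.9% of all genes, and 10 of these were type I-like genes, while 2 lay above every one, against 22.6%. Ifngr2 fell by 0.78 on the log2 scale (± 0.13, edgeR adjusted p = 0.0032, and 0.051 without tMCAO_DE 2). Mx1 fell by 2.21 (± 0.58, 0.021), a call lost without either tMCAO_DE library (up to 0.14). Ifit2 fell by 0.52 (± 0.16, 0.044), a call lost under 12 settings, among them without any of the sham_CON libraries, sham_DE 3 or 4, tMCAO_CON 2 or 3 or either tMCAO_DE library (up to 0.21). Irgm1 rose by 0.81 ± 0.23 (0.026), a call lost without tMCAO_CON 1 or 4 or either tMCAO_DE library (up to 0.23). Irf7 at -0.69 ± 0.42 (0.27), Dhx58 at -0.59 ± 0.32 (0.2) and Trim30a at -0.83 ± 0.38 (0.14) were the lowest by p in their roles and did not pass.

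Depletion without stroke, sham_DE against sham_CON, changed few members. The 2 falls of 41 (edgeR), both chains of the interferon-gamma receptor, stood against 4.49% of all genes, so the share of falls was near the background, and the 0 rises stood against 6.85%. With DESeq2 as well no member rose, and at an unadjusted p under 0.05 in edgeR 2 members rose and 7 fell. Ifngr1 fell by 0.77 on the log2 scale (± 0.12, edgeR adjusted p = 0.003) under every setting, and Ifngr2 by 0.47 (± 0.11, 0.021), a call lost under 7 settings, among them without any of the sham_CON libraries or sham_DE 2 (up to 0.097). In 5 of 41 members every sham_DE library lay below every sham_CON library, against 10.9% of all genes, and in 1 above, against 12%. Parp3 at 0.42 ± 0.14 (0.065), Bst2 at -0.92 ± 0.33 (0.088), Stat2 at -0.31 ± 0.13 (0.14), Irgm1 at -0.32 ± 0.22 (0.36) and Ddx58 at 0.28 ± 0.21 (0.4) had the lowest p in their roles and did not pass. Type I-like genes had a median of -0.22 and GTPases of -0.31, against -0.00 for all genes.

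**Figure D5:**
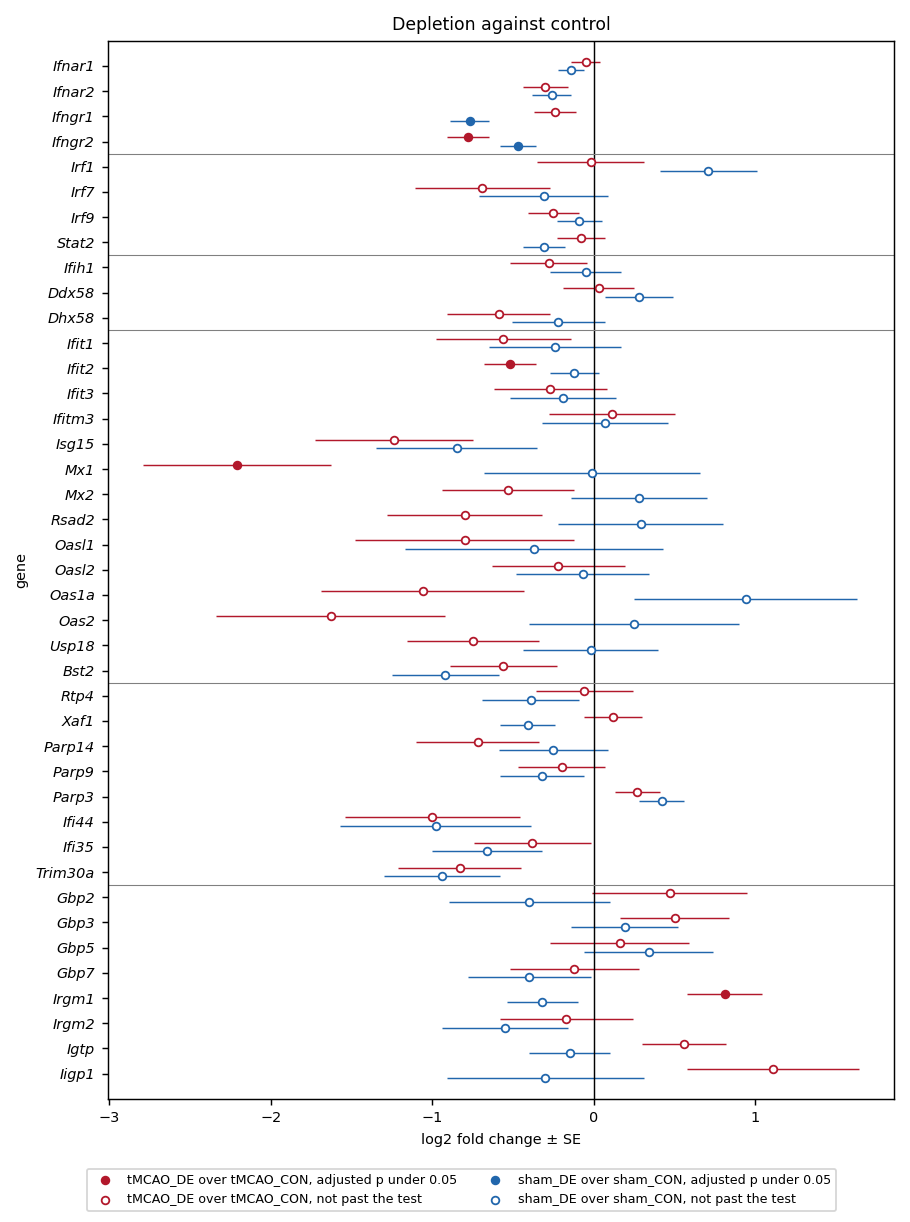
Log2 fold change of each member with its standard error in both depletion comparisons, tMCAO_DE over tMCAO_CON and sham_DE over sham_CON, with filled points for an edgeR adjusted p under 0.05. The filled points are Irgm1, Ifngr2, Mx1 and Ifit2 in the occluded brain and Ifngr1 and Ifngr2 in the sham brain.

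Genes around the members in the pathway were counted from lists of known function, beside shares of all genes of 6.59% higher and 5.84% lower in tMCAO_DE over sham_DE and 5.14% higher and 3.31% lower in tMCAO_CON over sham_CON. The interferons themselves were barely read, with 7 counts of Ifnab, 6 of Ifnb1 and 6 of Ifne in all 13 libraries, and none was tested. Of 10 signalling genes (kinases, Stat3 and other IRFs), 2 rose with microglia present (Stat3 by 1.30 ± 0.11, edgeR adjusted p = 3.1e-05, and Irf5 by 1.02 ± 0.21, 0.012) and none fell. After depletion Stat3 rose by 1.33 ± 0.12 (6.4e-05), and Tyk2, the kinase on IFNAR1, fell by 0.50 (± 0.12, 0.017). In depleted sham brain Irf5, Irf8 and Irf3 fell, and in depleted occluded brain Jak1 rose while Irf5, Irf8, Irf3 and Tyk2 fell (edgeR). Irf5 and Irf8 are factors of myeloid cells, and their log2 fold changes were -2.58 ± 0.28 and -1.53 ± 0.28 in tMCAO_DE over tMCAO_CON and -1.90 ± 0.24 and -1.56 ± 0.25 in sham_DE over sham_CON.

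Of 12 negative regulators, Socs3, a feedback inhibitor of cytokine signalling, rose by 2.48 ± 0.31 with microglia (edgeR adjusted p = 5e-04) together with the phosphatase Ptpn6, and by 2.39 ± 0.31 after depletion (0.00081) together with Cish. Of 14 tested genes of nucleic acid sensing upstream of interferon, 2 rose with microglia, the adaptor Myd88 by 1.38 ± 0.16 (0.00038) and Mb21d1, which encodes cGAS, by 1.28 ± 0.32 (0.026). After depletion 4 rose, among them Tmem173, which encodes STING, by 1.69 ± 0.31 (0.0051). Depletion itself lowered Tmem173, by 2.29 in sham (± 0.27, 0.00056) and by 1.37 in occluded brain (± 0.28, 0.008), and 4 of 14 genes of that list fell in each of these comparisons, against 4.49% and 9.26% of all genes. Mb21d1 rose in sham_DE over sham_CON by 1.19 ± 0.32 (0.032), and no other gene of the list rose in either. Cxcl10, a chemokine induced by interferon, had 5.22 and 4.61 CPM in tMCAO_DE, 3.92, 8.25, 17.4 and 3.06 CPM in tMCAO_CON, 2.65, 2.77, 1.83 and 2.22 CPM in sham_DE, and 0.697, 0.239 and 0.113 CPM in sham_CON. It was lowest in sham_CON, and the sham_DE libraries lay between sham_CON and the occluded groups. Cxcl10 rose by 4.48 ± 0.69 in tMCAO_CON over sham_CON (edgeR adjusted p = 0.0022) and by 2.72 ± 0.72 in sham_DE over sham_CON (0.031), and stood at 1.04 ± 0.57 in tMCAO_DE over sham_DE (0.25).

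Among 11 genes of the immunoproteasome and class I loading, the peptide transporter Tap1 rose by 1.29 ± 0.24 with microglia (edgeR adjusted p = 0.0058) and by 1.13 ± 0.25 after depletion (0.012). Tapbp and Erap1 also rose with microglia and Psmb8 after depletion. Outside the members, 44 further interferon-induced genes were tested, of which 8 rose after depletion and 14 with microglia (18.2% and 31.8%, against 6.59% and 5.14% of all genes), and none fell in either. Among them the kinase Eif2ak2 (PKR) rose by 0.87 ± 0.21 (0.02) after depletion and by 1.08 ± 0.20 (0.0053) with microglia, and Ifitm2 by 1.12 ± 0.22 (0.0071) and 1.21 ± 0.21 (0.0045). No gene of these lists passed the interaction test in edgeR.

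Levels of cell type markers were summed per library, and some lists moved with the groups. Summed over 12 markers of homeostatic microglia, levels were 54.2 to 59.1 CPM in tMCAO_DE, 330 to 438 CPM in tMCAO_CON, 41.8 to 78.7 CPM in sham_DE and 332 to 353 CPM in sham_CON. Of these markers Cx3cr1, the gene at which the Cre lies, stood at 24.2 CPM in sham_CON 2. It stood at 0 to 2.09 CPM in the other libraries, and the reason was not tested. Over 10 markers of border and infiltrating macrophages summed levels were 40.2 to 51 CPM in tMCAO_DE, 20.1 to 41.6 CPM in tMCAO_CON, 32.8 to 42.9 CPM in sham_DE and 6.6 to 10.4 CPM in sham_CON. Over 10 neutrophil markers they were 3.04 to 12.2 CPM in tMCAO_DE, 1.36 to 3.76 CPM in tMCAO_CON, 1.84 to 34.7 CPM in sham_DE and 1.23 to 33.5 CPM in sham_CON, with sham_DE 3 and sham_CON 2 the highest. The macrophage sum was thus higher in tMCAO_DE, tMCAO_CON and sham_DE than in sham_CON, and its ranges in the occluded groups overlapped sham_DE. Its markers did not move alike, so similar sums can differ in make-up. Msr1 stood at 6.62 to 18.4 CPM in tMCAO_CON and at 0.5 to 1.83 CPM in sham_DE. F13a1 went the other way, at 3.79 to 6.01 CPM and 9.14 to 13.7 CPM. Ccr2 and Ly6c2 stayed at 0 to 1.76 CPM and 0 to 0.529 CPM in all libraries. Of 9 tested macrophage markers 6 were called higher in sham_DE over sham_CON and 4 in tMCAO_CON over sham_CON, against 6.85% and 5.14% of all genes. Within the occluded brain (tMCAO_DE over tMCAO_CON), 3 were higher and 1 lower, against 9.36% and 9.26%. After depletion (tMCAO_DE over sham_DE), 1 was higher, against 6.59%. Neutrophil markers were not ordered by group. Over the 6 T and NK cell markers in the tables, levels were 3.77 to 3.8 CPM in tMCAO_DE, 2.33 to 3.7 CPM in tMCAO_CON, 1.95 to 3.02 CPM in sham_DE and 1.77 to 2.21 CPM in sham_CON, with Cd8a at 0 in 9 libraries and Nkg7 at 0 in 9. Over 8 astrocyte markers levels were 2050 to 3700 CPM in tMCAO_DE, 3730 to 4520 CPM in tMCAO_CON, 1490 to 3990 CPM in sham_DE and 4120 to 4160 CPM in sham_CON. Slc1a2, a glutamate transporter, stood at 511 CPM in tMCAO_DE 1 and 489 CPM in sham_DE 2, the libraries with the lowest sums, and at 2200 to 3100 CPM in the others, where it was the highest of these markers in CPM. Of the 8 astrocyte markers, 6 had log2 fold changes below 0 in sham_DE over sham_CON and 6 in tMCAO_DE over tMCAO_CON, beside 8558 and 8678 of all 16940 genes. In the sham comparison 1 marker was called higher and 0 lower (edgeR), against 6.85% and 4.49% of all genes. In the occluded comparison 0 were called higher and 1 lower, against 9.36% and 9.26%. With occlusion, 3 were called higher in tMCAO_CON over sham_CON and 2 in tMCAO_DE over sham_DE, and none lower. Of all genes 5.14% and 6.59% were higher in these 2 comparisons, and 3.31% and 5.84% lower. The part of these cell types in the changes of the members was not tested.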

How the data were processed

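Brain RNA of 13 male mice in 4 groups was isolated with an RNeasy column kit and made into paired-end TruSeq libraries, per the labels' protocols. The authors deposited 1 table per group, and per the file headers each holds a count per gene and library, not normalised, which the tests used. The FPKM values that the authors deposited beside the counts are scaled to length and library, and served for levels between genes and for limma. The submitters' processing notes name Cufflinks 2.1.1, Cuffdiff and the build mm10. The sources used here do not give the aligner, the annotation, the counting or the use of strand. Reads of overlapping genes can therefore be shared, which concerns 7 members on the same strand (Igtp, Irgm2, Irf9, Gbp7, Rtp4, Parp14 and Ifnar2) and 9 on the opposite strand (Irf1, Irf7, Oasl1, Usp18, Dhx58, Gbp2, Parp9, Parp3 and Ifi35), and near copies exist for Ifit3, Oas1a and the Gbp genes.

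Counts of 29 repeated symbols were summed and 24 names turned into dates were left out. TMM factors scaled the counts and filterByExpr removed 4116 genes. A model of 4 group means over 13 libraries was fitted with edgeR 4.0.16 in R 4.3.3, two-sided, with a common biological coefficient of variation of 15.2%. Standard errors are the absolute log2 fold change over the square root of F. CPM were computed with the TMM-scaled library totals. The genotype labels differ in the number of the receptor locus and were read as 1 genotype. No pair of libraries in a group agreed within sampling noise. Same-numbered libraries did not deviate together (r = -0.0787 to 0.11 over 16 pairs), so numbers were not taken to pair animals.

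The members and lists were chosen with earlier results of these data known, and 1 gene of the pathway lists is not reported here. In each comparison the member with the lowest p in each role is given in every library, and others by counts or single values, of which Iigp1 and Cxcl10 were given in every library after their values were seen. Alternatives were other scalings, no filter, DESeq2 1.42.0, limma 3.58.1 with pseudocounts of 0.1 and 1, fitting only the groups compared, a replicate block and leaving out libraries. The tests were checked on simulated data, with changes placed only in genes with many reads and only in tMCAO_CON. Detection of changes in tMCAO_DE, in the interaction or in genes with few reads was not checked.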

Additional observations from a re-analysis of the deposited data

Results flagged for a closer look

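In groups of 4 libraries, the levels of 13 member and group pairs, of 82 examined, had 1 library that stood apart from the other 3. The rule was Dixon's ratio of the gap to the range, which flags about 1 in 20 by chance. The members were read in the same libraries, so the pairs are not independent and 13 of 82 cannot be judged against that rate. In 11 of the 13 pairs the library that stood apart was tMCAO_CON 3, always the highest of its group. Its levels there were 11.3 CPM for Irf7, 20.2 for Ifit1, 38.9 for Ifit3, 7.12 for Isg15, 8.47 for Mx2, 23.6 for Oasl2, 4.12 for Oas2, 6.76 for Usp18, 16.9 for Parp14, 4.65 for Ifi44 and 12.5 CPM for Iigp1. The other 3 tMCAO_CON libraries lay at 4.75 to 5.02 CPM for Irf7, at 6.01 to 8.28 for Ifit1, at 2.13 to 2.48 for Isg15 and at 1.16 to 1.46 CPM for Oas2, for example. Over all 41 members tMCAO_CON 3 was the highest of its group in 37. The smaller groups, sham_CON and tMCAO_DE, were not examined for a library standing apart. There sham_CON 2 was the highest of its group in 33 members and tMCAO_DE 2 in 31. Ifngr1 stood apart at 11.1 CPM in tMCAO_CON 1, below the 14.1 to 14.5 CPM of the others, and Iigp1 at 3.24 CPM in sham_DE 1, above the 0.731 to 1.05 CPM of the others.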

How the results depend on the processing

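Single-gene results were followed for the members called or with the lowest p in their role. None of these reversed, and 1305 kept their side of the threshold, 133 lost it and 5 gained it. Signs of other members did change. Positive signs in the interaction went from 17 to 26 without tMCAO_CON 3. In tMCAO_DE over tMCAO_CON they went from 10 to 17 without that library. In sham_DE over sham_CON they went from 10 to 16 without sham_CON 2. The median over members in the interaction changed sign, from -0.15 to 0.26 without tMCAO_CON 3 and to 0.04 without sham_CON 3. With all members, rises in tMCAO_CON over sham_CON were 22, and 7 to 25 when leaving out 1 library, and rises in tMCAO_DE over sham_DE were 19, and 3 to 26. Rises in sham_DE over sham_CON were 0 (0 to 1) and falls 2 (1 to 3), with 1 fall when only the groups compared were fitted, with the replicate block, and without sham_CON 2 and sham_DE 3 together. In tMCAO_DE over tMCAO_CON rises were 1 (0 to 1) and falls 3 (0 to 3), with 1 fall when only the groups compared were fitted. The replicate block gave 0 rises there, ending the calls of Irgm1 and Ifit2, and otherwise 23 and 19 rises in the 2 occlusion comparisons, where it ended the calls of Gbp7 and Trim30a in tMCAO_DE over sham_DE. It also ended that of Ifngr2 in sham_DE over sham_CON. The class counts were tried under the same settings after seeing the data. Type I-like rises in tMCAO_CON were 19 (5 to 20) and in tMCAO_DE 11 (1 to 17). GTPase rises in tMCAO_DE were 6 (1 to 7) and in tMCAO_CON 2 (1 to 4), with 6 by DESeq2, 5 with library totals alone, 5 by limma with either pseudocount and 4 without sham_CON 2 and sham_DE 3 together. The cause of these moves was not tested, beyond the smaller number of libraries. Library totals alone put the median of all genes at 0.11 in tMCAO_CON over sham_CON, against 0.02. A fit of only the groups compared could not be made for the interaction. Mx1, Oas1a, Oas2 and Oasl1 had few reads, which limits their precision.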
